A study of Homo sapiens with 12 samples.

Results

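CDKN1A, MDM2, GDF15, ZMAT3, SESN1, FAS, TP53INP1, RRM2B, FDXR and TP53I3 are 10 genes known as transcriptional targets of the tumour suppressor p53. They were taken by symbol from the 28576 genes of the deposited expression table, which gives CPM (a gene's reads scaled to a library total of 1000000). The rule itself uses no measured value, although the list was drawn up with earlier results of these data known. All 10 were found, and all 10 passed the filter for testing, which asked for 0.5 CPM or more in 3 or more libraries. They were followed in poly(A) RNA-seq libraries of SHEP, an established human neuroblastoma line, in 4 groups of 3 libraries. All 12 libraries come from cells with both a MYCN-ER fusion, a MYCN protein that 4-hydroxytamoxifen (OHT) switches on, and a short hairpin RNA against TCEAL1 that doxycycline (Dox) induces. Ctrl received neither compound, OHT received 200 nM 4-hydroxytamoxifen, Dox received 1 µg/ml doxycycline, and OHT_Dox received both. No group lacks the fusion or the hairpin, so effects of the compounds themselves cannot be told apart from those of active MYCN-ER or of the hairpin. The labels name no treatment time and no clone, and do not say whether replicates were grown as separate cultures, so a p-value here reflects the spread among the 12 libraries alone, which may be technical.

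p53 is a transcription factor that is held at a low level by MDM2, a ubiquitin ligase that marks it for destruction and is itself encoded by a p53 target gene. When DNA damage, lost nucleolar integrity or oncogene activity frees p53 from MDM2, it raises genes that stop the cell cycle, repair DNA, alter metabolism or kill the cell. MYC proteins are known both to activate p53 through the CDKN2A product ARF and to repress CDKN1A, the gene for the cell cycle inhibitor p21, together with the factor MIZ1.

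The knockdown was visible in every library: TCEAL1 lay between 8.23 and 10.7 CPM in the 6 libraries without Dox and between 1.73 and 2.74 CPM in the 6 with it. MYCN, whose reads can come from the fusion or from the cell's own gene, lay between 376 and 644 CPM. Its level is no check of OHT, which acts on the protein. Libraries held between 44466458 and 57694970 reads. The mesenchymal neuroblastoma markers were present in all libraries (11 of 11 at a mean of at least 1 CPM, summed level 3639 to 4725 CPM), as were 4 of the 9 adrenergic markers in the table (summed level of the 9, 102 to 142 CPM). CHGA was among the adrenergic markers at or near 0, with at most 10 reads in a library. Markers of epithelial cells summed to at most 2.05 CPM, those of haematopoietic cells to at most 0.656 CPM and those of endothelial cells to at most 0.200 CPM. In bulk RNA, fewer cells expressing a gene and less of its RNA per cell cannot be told apart.

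In untreated cells the 10 genes spanned a wide range of expression. Per kilobase of exonic sequence, CDKN1A was the highest at 36.1 ± 3.3 CPM per kb (mean ± SD, n = 3 here and below), followed by TP53I3, a quinone oxidoreductase linked to oxidative stress and cell death, at 13.7 ± 0.95 CPM per kb. RRM2B, the p53-inducible subunit of ribonucleotide reductase, stood at 8.45 ± 0.37 and MDM2 at 7.17 ± 0.40 CPM per kb. Next came GDF15, a secreted stress cytokine of the TGF-beta superfamily, at 6.04 ± 0.48 CPM per kb, and FDXR, the mitochondrial ferredoxin reductase, at 5.32 ± 0.57 CPM per kb; the libraries of these neighbours overlapped. FAS, the death receptor, followed at 4.22 ± 0.11 CPM per kb. SESN1, a sestrin that restrains mTORC1 and is linked to antioxidant defence, stood at 2.04 ± 0.07 and ZMAT3, a zinc finger RNA-binding protein, at 1.84 ± 0.25 CPM per kb, again with overlapping libraries. TP53INP1, a stress-induced nuclear protein tied to autophagy and death, was the lowest at 0.10 ± 0.04 CPM per kb. The other neighbours in this order did not overlap in any Ctrl library. Lengths are the union of all annotated exons, which lowers the value per kilobase of a gene with long or rarely used exons such as MDM2.

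The order of the levels per kilobase differed between the groups. GDF15, above FDXR in Ctrl and in Dox (6.36 ± 0.25 CPM per kb), stood below FDXR and FAS in OHT (3.76 ± 0.47 CPM per kb) and in OHT_Dox (3.81 ± 0.14 CPM per kb). In OHT these 3 genes overlapped, and in OHT_Dox no GDF15 library reached those of the other two. ZMAT3 stood above SESN1 without overlap in Dox (2.27 ± 0.08 against 2.05 ± 0.10 CPM per kb) and below it without overlap in OHT_Dox (2.34 ± 0.12 against 2.72 ± 0.11 CPM per kb), while the pair overlapped in Ctrl and in OHT. The spread between replicates was smallest for FAS, with a mean coefficient of variation within groups of 3.81%, and largest for TP53INP1 at 19.8%. TP53INP1 rests on 18 to 54 reads per library, RRM2B on 1697 to 3072 and CDKN1A on 4154 to 6764.

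**Figure D1:**
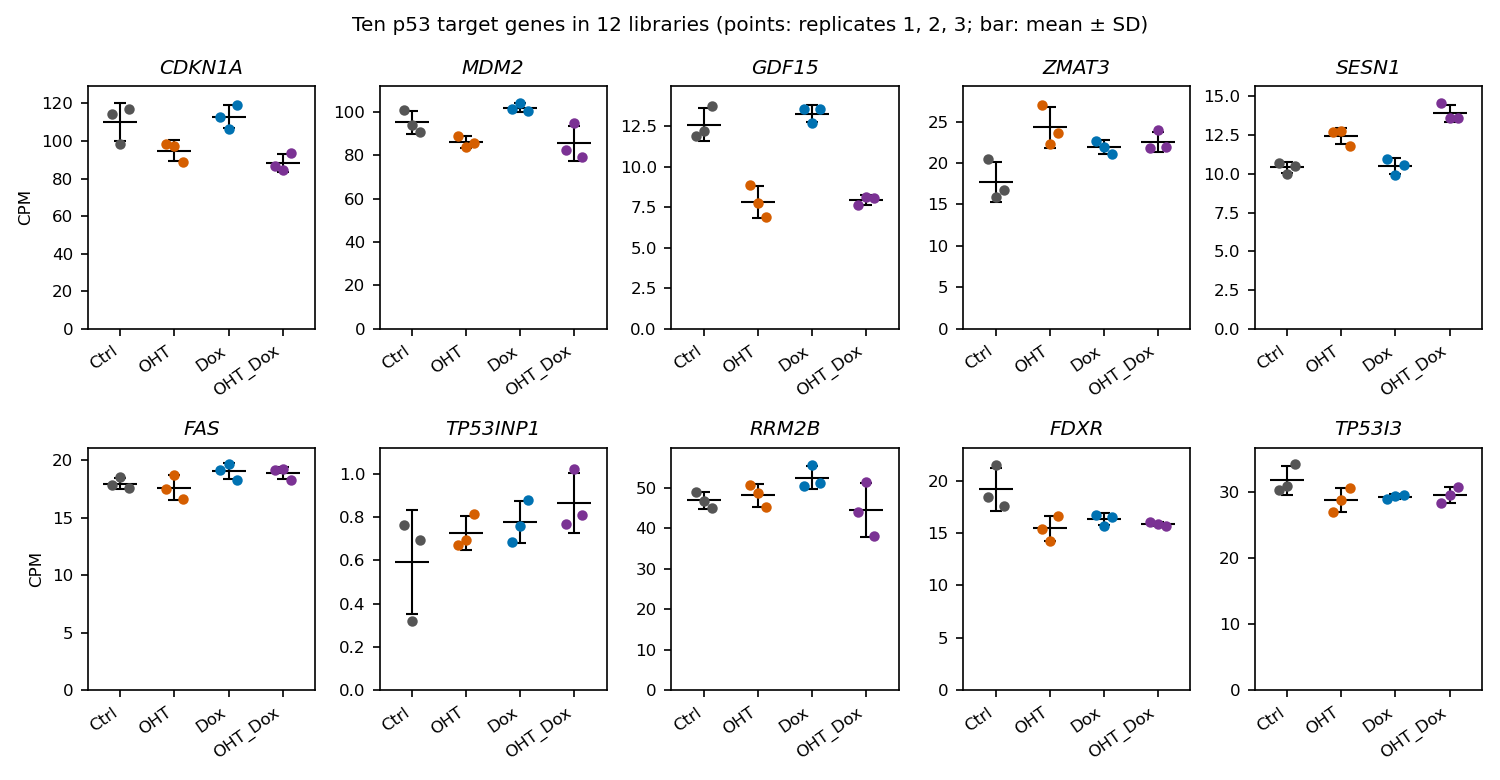
CPM (linear axis from 0) of each of the 10 genes in the 12 libraries, with points for replicates 1 to 3 and bars for the mean ± SD of each group. GDF15 and CDKN1A sit lower and SESN1 higher in both groups with OHT, Ctrl is the lowest group for ZMAT3 and the highest for FDXR, and the 4 groups of FAS lie close together between 16.6 and 19.7 CPM.

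Promoter sequences from RefSeq (assembly GRCh38.p14) were matched by symbol for 8 of the 10 genes, in 17 windows that run from 250 bases before to 50 bases after an annotated start. TP53INP1 and RRM2B have no entry. Some windows of the same gene overlap: the second start of MDM2 lies 5 bases from its first, and that of FAS 116 bases. The 17 windows are therefore not 17 separate promoters. On both strands, 0 of the 17 windows held the E-box CACGTG, the motif to which MYC proteins bind with MAX, where 7.26% of all 35116 promoter windows did. The p53 decamer, the unit that a p53 response element repeats, was found in 3 windows, 1 each of FDXR, SESN1 and FAS, where 6.63% of all windows held it. A match is a description of the letters and no evidence of binding, and its absence says only that these letters are not in this window. The stretches before the start are shown for CDKN1A (chr6:36678464-36678713, + strand) and GDF15 (chr19:18385908-18386157, + strand), which were lower with OHT in both backgrounds and whose windows hold neither motif. They are also shown for the 3 windows with a p53 decamer: FDXR (chr17:74872995-74873244, - strand), SESN1 (chr6:109008989-109009238, - strand) and FAS (chr10:88991181-88991430, + strand). All are written 5′ to 3′ on the gene's strand, and capitals mark the p53 decamer, whose first base lies 11 bases before the start of FDXR, 49 before that of SESN1 and 122 before that of FAS.
CDKN1A: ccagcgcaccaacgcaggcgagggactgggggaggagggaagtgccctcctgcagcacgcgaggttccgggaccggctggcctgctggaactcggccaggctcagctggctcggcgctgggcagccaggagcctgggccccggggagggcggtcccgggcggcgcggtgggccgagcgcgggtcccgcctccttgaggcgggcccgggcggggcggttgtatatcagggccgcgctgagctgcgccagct
GDF15: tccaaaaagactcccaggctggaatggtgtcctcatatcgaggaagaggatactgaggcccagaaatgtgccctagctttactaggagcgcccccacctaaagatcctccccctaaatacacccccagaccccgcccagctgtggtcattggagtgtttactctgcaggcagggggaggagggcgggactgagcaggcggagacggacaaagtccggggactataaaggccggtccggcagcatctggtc
FDXR: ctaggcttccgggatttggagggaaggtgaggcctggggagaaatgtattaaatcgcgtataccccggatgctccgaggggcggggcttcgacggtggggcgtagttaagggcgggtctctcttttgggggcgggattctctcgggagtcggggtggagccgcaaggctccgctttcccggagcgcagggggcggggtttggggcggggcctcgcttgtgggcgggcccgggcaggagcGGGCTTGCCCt
SESN1: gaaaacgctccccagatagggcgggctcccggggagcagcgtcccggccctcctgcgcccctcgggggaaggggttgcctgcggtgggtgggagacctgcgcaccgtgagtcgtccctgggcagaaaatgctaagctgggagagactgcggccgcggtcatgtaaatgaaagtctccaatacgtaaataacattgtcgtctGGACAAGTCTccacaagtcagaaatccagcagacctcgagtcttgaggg
FAS: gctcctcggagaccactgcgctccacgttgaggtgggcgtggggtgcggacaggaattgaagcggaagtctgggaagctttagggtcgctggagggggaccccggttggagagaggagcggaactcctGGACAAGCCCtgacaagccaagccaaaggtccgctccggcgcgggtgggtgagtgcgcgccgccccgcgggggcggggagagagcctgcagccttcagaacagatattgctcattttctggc

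What activation of MYCN-ER does to these genes was read with the hairpin off (OHT against Ctrl) and with the hairpin induced (OHT_Dox against Dox). The 2 comparisons have no library in common. Differences are on the log2(CPM + 0.5) scale, given ± SE with limma's p-value adjusted over the 18674 genes tested (Benjamini-Hochberg), and a gene is called at an adjusted p below 0.05. Without Dox, 5 of the 10 genes were called: CDKN1A, GDF15 and FDXR fell, and ZMAT3 and SESN1 rose. Over all genes tested, 21.4% were called, 12.6% higher and 8.79% lower. With Dox, 5 of 10 were called again: CDKN1A, MDM2, GDF15 and RRM2B fell and SESN1 rose, where 26.0% of all genes were called, 11.5% higher and 14.5% lower. The count without Dox was 3 when any of the Ctrl libraries, OHT replicate 2, OHT replicate 3 or OHT_Dox replicate 1 was left out, and that with Dox was 3 without Dox replicate 1 and OHT_Dox replicate 3 together. CDKN1A, GDF15 and SESN1 were called in the same direction in both. The median difference of the 10 genes was -0.08 without Dox (all genes -0.01) and -0.03 with Dox (all genes -0.03). The latter median lay between -0.08 and 0.01 over the rescalings tried and so has no fixed sign. The genes did not move as one block, and members that rose stand beside members that fell. The summed adrenergic markers, 9 in the table and 4 of them at a mean of 1 CPM or more, were higher with OHT as well. They lay at 117 to 132 CPM in OHT against 102 to 110 CPM in Ctrl. With Dox they lay at 134 to 142 CPM in OHT_Dox against 107 to 109 CPM in Dox. By gene, 4 were tested: 2 rose and 0 fell without Dox, and 2 rose and 1 fell with Dox. The part of these markers in the differences of the p53 targets was not tested.

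CDKN1A encodes p21, the inhibitor of cyclin-dependent kinases through which p53 stops the cell cycle. Its CPM in Ctrl was 114, 98.5 and 117, in OHT 98.4, 97.6 and 88.6, in Dox 113, 107 and 119, and in OHT_Dox 86.6, 84.5 and 93.4. Every library with OHT was lower than every library without it in the same background, although the lowest Ctrl library was above the highest OHT library by a narrow margin. The fall was -0.21 ± 0.07 without Dox (adjusted p = 0.0363) and -0.35 ± 0.07 with Dox (adjusted p = 0.000800). The fall without Dox held in 17 of 23 alternatives. It was not called when Ctrl replicate 1 (-0.18), Ctrl replicate 3 (-0.16), OHT replicate 3 (-0.16) or OHT_Dox replicate 1 (-0.21) was left out. The call was also lost in limma with no filter (adjusted p = 0.0549) and with only the groups compared (adjusted p = 0.0661). The fall with Dox was called in each of the 23 alternatives. The difference between these responses was -0.14 ± 0.10 (adjusted p = 0.502), with a 95% interval from -0.35 to 0.06.

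MDM2, the ligase that restrains p53, had CPM values of 101, 93.9 and 90.7 in Ctrl against 89.0, 84.0 and 85.6 in OHT. In Dox they were 102, 104 and 100.3, against 82.6, 94.8 and 79.2 in OHT_Dox. In both backgrounds the libraries with OHT were lower without overlap, a separation seen in either direction in 34.2% of all genes without Dox and in 41.2% with Dox. With Dox MDM2 fell by -0.26 ± 0.06 (adjusted p = 0.00572). Without Dox its difference of -0.14 ± 0.06 was not called (adjusted p = 0.129, 95% interval -0.28 to -0.01). These calls traded places under a GC correction, in which the trend of a library's values with GC content and length is subtracted: the difference without Dox was then called (-0.22, adjusted p = 0.00186) and that with Dox was not (-0.12, adjusted p = 0.0710). The difference with Dox was also not called without both Dox replicate 1 and OHT_Dox replicate 3 (-0.21), the libraries whose values tilted most against and most towards GC-rich genes. The pooled annotated transcripts of MDM2 have a GC content of 41.4%, where the median tested gene has 48.9%. Beyond these refits, the part of the tilt in the result was not tested.

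GDF15 gave the largest change of the 10 genes in both comparisons. Without OHT it stood at 11.9, 12.2 and 13.7 CPM (Ctrl) and at 13.5, 12.7 and 13.6 CPM (Dox), and with OHT at 8.87, 7.78 and 6.90 CPM (no Dox) and at 7.62, 8.15 and 8.10 CPM (OHT_Dox). The 6 libraries with OHT all lay below the 6 without it. The fall was -0.65 ± 0.10 without Dox (adjusted p = 8.82e-05) and -0.70 ± 0.10 with Dox (adjusted p = 3.55e-05), or 1.57-fold and 1.63-fold lower. Both calls held in each of the 23 alternatives, with values between -0.74 and -0.57 without Dox and between -0.78 and -0.67 with Dox. The interaction was -0.05 ± 0.14 (adjusted p = 0.900, 95% interval -0.35 to 0.25). GDF15 is also a target of ATF4 and CHOP, transcription factors of the integrated stress response.

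SESN1 moved the other way. Without OHT it stood at 10.7, 10.0 and 10.5 CPM (Ctrl) and at 10.9, 9.92 and 10.6 CPM (Dox), and with OHT at 12.7, 12.8 and 11.8 CPM (no Dox) and at 14.6, 13.6 and 13.6 CPM (OHT_Dox). Again the 6 libraries with OHT stood apart from the 6 without it, here above them. SESN1 rose by 0.25 ± 0.09 without Dox (adjusted p = 0.0466) and by 0.39 ± 0.09 with Dox (adjusted p = 0.00196), or 1.19-fold and 1.31-fold. The rise without Dox was near the threshold: it was called in 8 of 23 alternatives, its adjusted p ran from 0.0289 to 0.131, and of the 12 libraries OHT_Dox replicate 3 was the only one whose omission kept the call. Its size changed little, between 0.21 and 0.28. The rise with Dox was called in each of the 23 alternatives. The interaction was 0.15 ± 0.12 (adjusted p = 0.587, 95% interval -0.11 to 0.40).

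For ZMAT3 and FDXR the group that stood apart was Ctrl, not the groups with OHT. ZMAT3 binds RNA and is linked to splicing control and growth suppression downstream of p53. Its Ctrl libraries gave 20.5, 15.9 and 16.8 CPM, those of OHT 27.1, 22.3 and 23.6 CPM, those of Dox 22.7, 21.9 and 21.1 CPM and those of OHT_Dox 21.8, 23.9 and 21.9 CPM. Each Ctrl library lay below each of the other 9 libraries, while OHT_Dox and Dox overlapped. Of all genes, 34.2% did not overlap between OHT and Ctrl and 28.9% between Dox and Ctrl. The share with Ctrl apart from all other libraries was not counted. In Dox against Ctrl, the call of ZMAT3 held in 7 of 23 alternatives and was lost after the GC correction (0.16, adjusted p = 0.197 by limma). ZMAT3 rose by 0.45 ± 0.09 with OHT (adjusted p = 0.00166) and was at 0.04 ± 0.09 in OHT_Dox against Dox (adjusted p = 0.809, 95% interval -0.16 to 0.23). The difference between these responses was -0.41 ± 0.13 and was not called (adjusted p = 0.221), except when Ctrl replicate 1 was left out (-0.52, adjusted p = 0.0271), when 1041 genes were called for the interaction instead of 0.

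FDXR, which passes electrons to mitochondrial steroid and iron-sulfur cluster synthesis, mirrored this pattern. Its Ctrl libraries gave 18.4, 21.5 and 17.5 CPM, those of OHT 15.4, 14.2 and 16.7 CPM, those of Dox 16.8, 15.7 and 16.5 CPM and those of OHT_Dox 16.1, 15.9 and 15.7 CPM. Each Ctrl library lay above each of the other 9. In Dox against Ctrl, FDXR was not called by limma (adjusted p = 0.117) but was called by DESeq2 (adjusted p = 0.0331). FDXR fell by -0.30 ± 0.09 with OHT (adjusted p = 0.0188) and was at -0.04 ± 0.09 in OHT_Dox against Dox (adjusted p = 0.794, 95% interval -0.22 to 0.14). The fall with OHT was not called without Ctrl replicate 2 (-0.22, adjusted p = 0.112) or without OHT replicate 2 (-0.24, adjusted p = 0.0826). The interaction was 0.26 ± 0.12 (adjusted p = 0.321). The pooled annotated transcripts of FDXR have a GC content of 63.5% (percentile 94.7 of the tested genes) and those of ZMAT3 43.2% (percentile 25.6). Deviations of the Dox libraries correlated with GC content at -0.355, -0.296 and -0.096 (Spearman across genes), those of the Ctrl libraries at -0.081, 0.007 and 0.211. Beyond the refits, the part of this tilt in either gene was not tested.

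RRM2B supplies deoxynucleotides for DNA repair and for mitochondrial DNA in cells outside S phase. Its CPM in Ctrl was 49.0, 46.8 and 44.9, in OHT 50.8, 48.6 and 45.2, in Dox 50.5, 55.6 and 51.2, and in OHT_Dox 43.9, 51.4 and 38.2. The OHT_Dox libraries were spread widely and overlapped those of Dox. The fall in OHT_Dox against Dox was -0.24 ± 0.08 (adjusted p = 0.0395), and without Dox the difference was 0.04 ± 0.08 (adjusted p = 0.803). The fall was called in 11 of 23 alternatives, and lost on omission of any Dox library (-0.27 to -0.20) or of OHT_Dox replicate 1 (-0.24). It was not called by edgeR (-0.20) or DESeq2 (-0.21), without OHT_Dox replicate 3 (-0.14) or after the GC correction (-0.12). The pooled annotated transcripts of RRM2B have a GC content of 39.5% (percentile 8.92 of the tested genes). OHT_Dox replicate 3, the lowest library for RRM2B, had the strongest correlation of its deviations with GC content (Spearman 0.470 across genes).

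FAS, TP53INP1 and TP53I3 were called in neither OHT comparison. The CPM of FAS in Ctrl was 17.8, 18.5 and 17.6, in OHT 17.4, 18.7 and 16.6, in Dox 19.1, 19.7 and 18.3, and in OHT_Dox 19.2, 19.2 and 18.3. Its 95% intervals were among the narrow ones, -0.19 to 0.13 without Dox and -0.17 to 0.15 with Dox. The CPM of TP53I3 in Ctrl was 30.2, 30.8 and 34.2, in OHT 27.0, 28.8 and 30.6, in Dox 28.9, 29.4 and 29.5, and in OHT_Dox 28.2, 29.5 and 30.7. Its groups overlapped in both comparisons, with intervals of -0.29 to 0.01 and -0.14 to 0.16. The CPM of TP53INP1 in Ctrl was 0.764, 0.319 and 0.693, in OHT 0.671, 0.694 and 0.814, in Dox 0.686, 0.761 and 0.880, and in OHT_Dox 0.766, 1.02 and 0.810. At this depth its intervals were wide, -0.19 to 0.57 and -0.28 to 0.48, and differences within those bounds are not excluded.

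**Figure D2:**
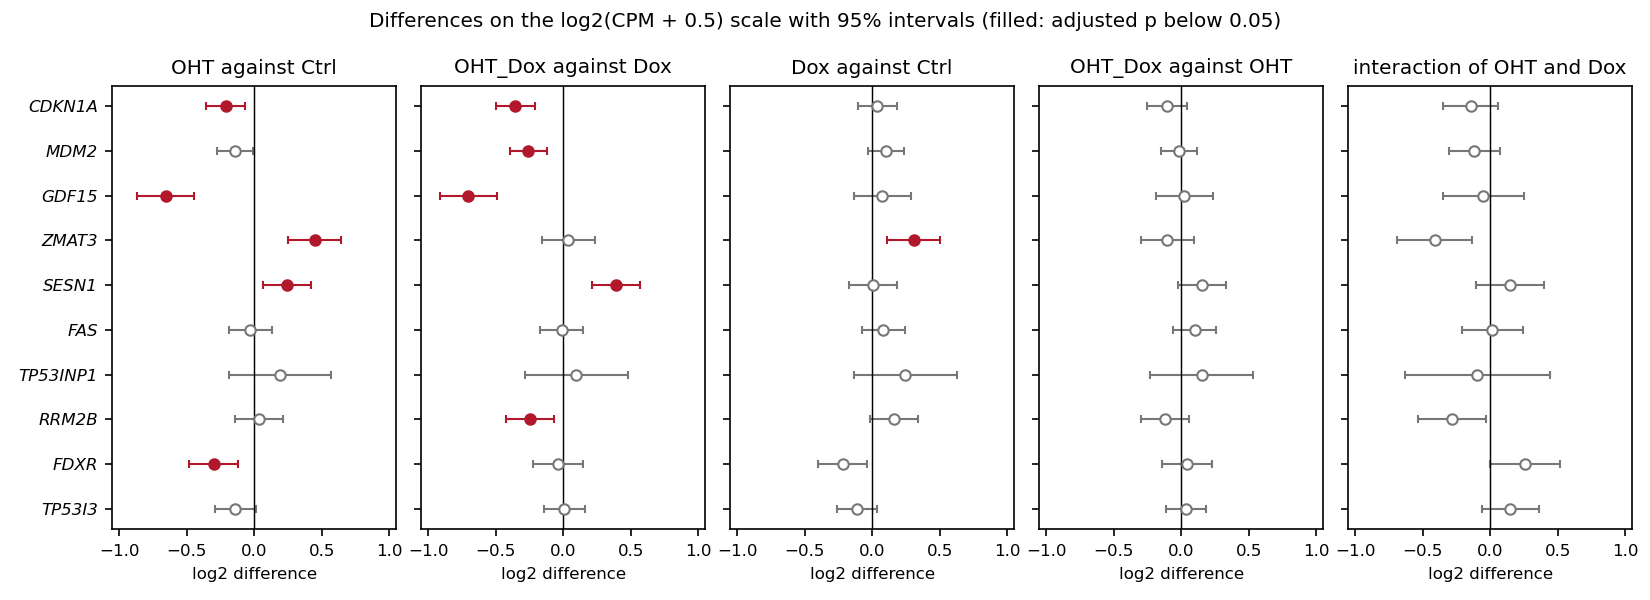
Differences of the 10 genes on the log2(CPM + 0.5) scale in 4 comparisons of groups and the interaction, with limma's 95% intervals and filled points for an adjusted p below 0.05. Filled points stand on both sides of 0 in the comparisons with OHT, ZMAT3 is the single filled point for Dox against Ctrl, and no point is filled for OHT_Dox against OHT or for the interaction.

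The hairpin was read without OHT (Dox against Ctrl) and with it (OHT_Dox against OHT). In Dox against Ctrl, 1 of 10 was called, where 8.29% of all genes were called (5.68% higher, 2.61% lower): ZMAT3 rose by 0.31 ± 0.09 (adjusted p = 0.0488). This call held in 7 of 23 alternatives, and was lost among others with TMM scaling (0.26, adjusted p = 0.0810), edgeR (0.26, adjusted p = 0.0857), DESeq2 (0.26, adjusted p = 0.0507) and the GC correction (0.16, adjusted p = 0.197). It was also lost on omission of Ctrl replicate 2 (0.24), Ctrl replicate 3 (0.27), OHT replicate 3, any Dox library (0.28 to 0.33) or OHT_Dox replicate 1 or 2. FDXR, at -0.22 ± 0.09, was not called by limma (adjusted p = 0.117) but was called by DESeq2 (-0.28, adjusted p = 0.0331). The libraries of ZMAT3, FDXR, RRM2B (0.16 ± 0.08, adjusted p = 0.237) and TP53I3 (-0.11 ± 0.07, adjusted p = 0.327) did not overlap between Dox and Ctrl, 4 of 10, where 28.9% of all genes did not overlap. The other 6 genes lay between 0.01 (SESN1) and 0.25 (TP53INP1), none called. Over all genes, 68.5% of the calls were higher in Dox, and that share was 41.1% after TMM scaling, 39.0% with edgeR and 43.4% with DESeq2. The share also turned without rescaling when a library was left out, to 43.3% without Ctrl replicate 2, 47.2% without Ctrl replicate 3 and 43.1% without Dox replicate 2. The summed mesenchymal markers moved with Dox as well, from 4446 to 4725 CPM in Ctrl to 3680 to 3869 CPM in Dox, with 6 of 11 markers lower and 1 higher by the test. Their part in the differences of the p53 targets was not tested.

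In OHT_Dox against OHT, 0 of the 10 genes were called, where 2.10% of all genes were (0.509% higher, 1.59% lower). At an unadjusted p below 0.05 the count was also 0, and edgeR and DESeq2 called 0 each. SESN1, at 0.16 ± 0.09 (adjusted p = 0.454), was the only one whose libraries did not overlap, a separation seen in 18.7% of all genes. The 95% intervals reached at most 0.33 for SESN1 on the higher side and -0.30 for ZMAT3 and for RRM2B on the lower side, leaving out TP53INP1, whose interval ran from -0.23 to 0.53. For CDKN1A the interval ran from -0.25 to 0.04, for MDM2 from -0.15 to 0.12 and for GDF15 from -0.19 to 0.23.

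With both compounds against neither, 5 of 10 genes were called, where 25.3% of all genes were (10.3% lower). The same 5 and TP53INP1 did not overlap between these groups, where 36.7% of all genes did not. CDKN1A fell by -0.32 ± 0.07 (adjusted p = 0.00214), GDF15 by -0.63 ± 0.10 (adjusted p = 0.000106) and FDXR by -0.26 ± 0.09 (adjusted p = 0.0360). ZMAT3 rose by 0.35 ± 0.09 (adjusted p = 0.00996) and SESN1 by 0.40 ± 0.09 (adjusted p = 0.00163). Without Ctrl replicate 2, the highest Ctrl library for FDXR and the lowest for ZMAT3, neither of these was called (-0.18, adjusted p = 0.186, and 0.27, adjusted p = 0.0605), nor was FDXR when any OHT_Dox library was left out (-0.27 to -0.25). MDM2, at -0.16 ± 0.06, was not called (adjusted p = 0.0825) but was called with TMM scaling (-0.18, adjusted p = 0.0446), with DESeq2 (-0.18, adjusted p = 0.0379), after the GC correction (-0.20, adjusted p = 0.00261) and without OHT_Dox replicate 2 (-0.23, adjusted p = 0.0106). This comparison shares its Ctrl libraries with OHT against Ctrl. For the interaction, which asks whether the response to OHT differs with the hairpin induced, 0 of 10 genes and 0.0% of all genes were called by limma. At an unadjusted p below 0.05 there were 3 of 10 genes (ZMAT3, RRM2B at -0.28 ± 0.12 and FDXR) and 15.4% of all genes. Neither edgeR nor DESeq2 called any of the 10, and over all genes they called 0 and 1.

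The levels of genes that regulate p53 were read beside these values. MDM4, the MDM2 relative that blocks p53's activation domain, lay between 18.1 and 26.6 CPM over the libraries, and USP7, a deubiquitinase that stabilises MDM2 and p53, between 143 and 176 CPM. Neither was called in any comparison. PPM1D, the phosphatase WIP1 that switches p53 signalling off and is itself a p53 target, had 30.5, 30.1 and 31.1 CPM in the Ctrl libraries, 24.3, 25.5 and 26.8 in those of OHT, 33.7, 33.3 and 33.0 in those of Dox and 24.1, 24.6 and 25.0 in those of OHT_Dox. It thus lay lower in all 6 libraries with OHT, and fell by -0.26 ± 0.06 without Dox (adjusted p = 0.00736) and by -0.43 ± 0.06 with Dox (adjusted p = 5.65e-05).

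Of the 22 genes in the list of p53 regulation, 21 were tested. With OHT 3 rose and 2 fell without Dox, a share near the 21.4% of all genes called, and 2 rose and 7 fell with Dox, where 26.0% of all genes were called. CHEK2, a kinase that phosphorylates p53 after DNA breaks, rose from 24.8 ± 0.89 to 38.4 ± 1.5 CPM without Dox (0.62 ± 0.07, adjusted p = 3.06e-06) and from 28.6 ± 2.4 to 39.9 ± 1.6 CPM with Dox (0.48 ± 0.07, adjusted p = 6.07e-05). TP73, a p53 relative, fell by -0.38 ± 0.07 and by -0.33 ± 0.07. CHEK1, the effector kinase of the replication checkpoint, fell with OHT in the Dox background by -0.27 ± 0.06 (adjusted p = 0.00193). ATR, the kinase above it, rose by 0.39 ± 0.08 without Dox. In Dox against Ctrl 2 of the 21 were called, where 8.29% of all genes were: ATR (0.34, adjusted p = 0.0193) and TP53BP1 (0.26, adjusted p = 0.0254). Neither was called after the GC correction (0.15 and 0.13), nor without Ctrl replicate 2, Ctrl replicate 3 or Dox replicate 2. CDKN2A, which encodes ARF, had at most 8 reads in a library (0.145 CPM) and was under the filter.

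**Figure D3:**
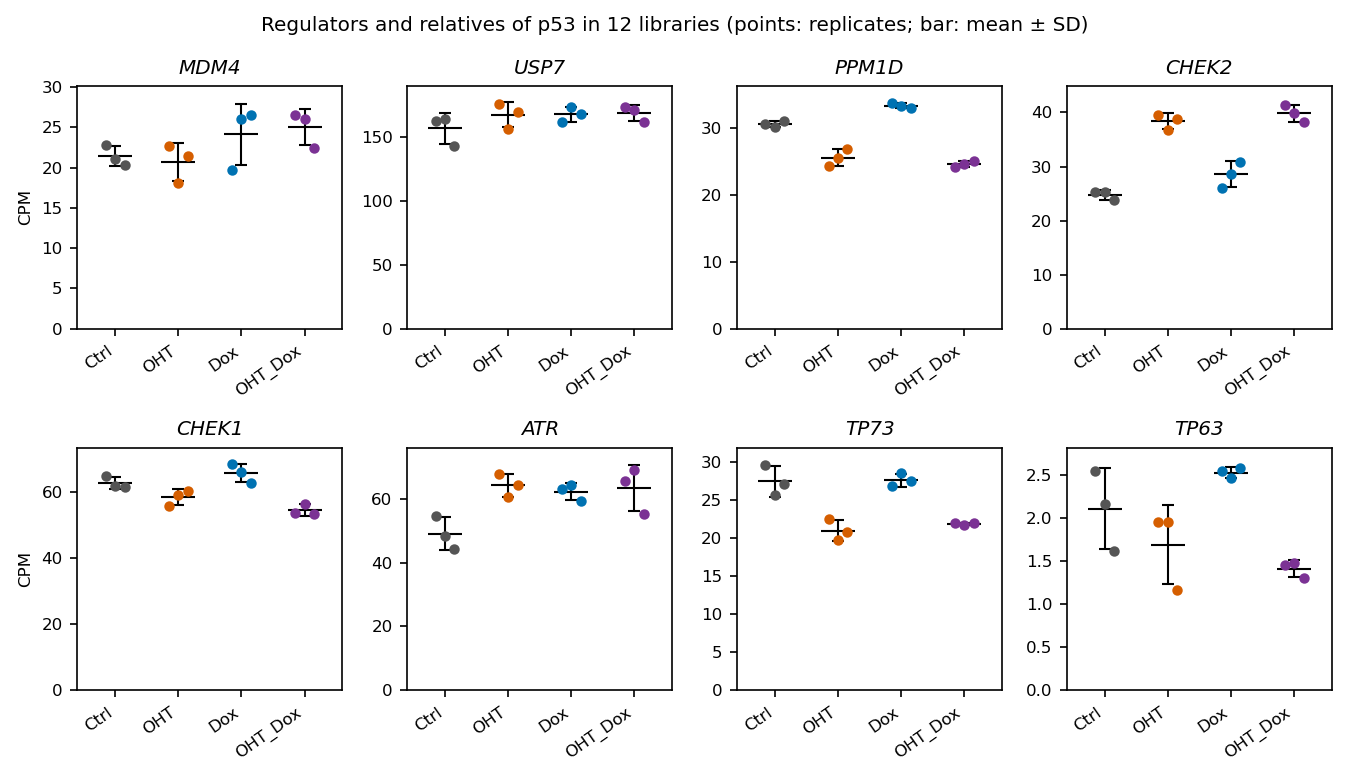
CPM (linear axis from 0) of 8 regulators and relatives of p53 in the 12 libraries, with points for replicates and bars for the mean ± SD of each group. MDM4 and USP7 show overlapping groups in each comparison, PPM1D and TP73 sit lower and CHEK2 higher in the 6 libraries with OHT, ATR is lowest in Ctrl, and TP63 lies at or below 2.58 CPM.

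Further p53 targets were read by role from lists that do not hold the 10 genes. Of 70 such genes 65 were tested. With OHT, 9 rose and 17 fell without Dox (40.0% called, against 21.4% of all genes), and 11 rose and 21 fell with Dox (49.2% called, against 26.0%). Their median differences were -0.07 and -0.05, where those of all genes were -0.01 and -0.03. With TMM scaling, edgeR or DESeq2 the median with Dox lay between -0.02 and -0.01, and after the GC correction it was -0.07. In Dox against Ctrl 1 rose and 3 fell (6.15%, against 8.29% of all genes), and in OHT_Dox against OHT 0 rose and 2 fell (3.08%, against 2.10%).

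Among 11 tested growth arrest genes 1 rose and 4 fell without Dox, and 2 rose and 7 fell with Dox. Of all genes, 21.4% were called without Dox and 26.0% with Dox. GADD45A, a stress-induced inhibitor of CDK1 and PCNA partner, went from 57.4 ± 12 to 35.3 ± 1.6 CPM (-0.67 ± 0.10, adjusted p = 6.65e-05) and, with Dox, from 46.4 ± 3.1 to 36.3 ± 1.7 CPM (-0.35 ± 0.10, adjusted p = 0.0142). The latter call needed Dox replicate 2 (-0.30 when it was left out, adjusted p = 0.0764) and OHT_Dox replicate 3 (-0.32, adjusted p = 0.0550). BTG1, an antiproliferative regulator of mRNA deadenylation, fell by -0.38 ± 0.07 and -0.41 ± 0.07. PLK3, a stress-responsive polo-like kinase, rose by 0.42 ± 0.09 and 0.54 ± 0.09. PLK2, its relative, had 362, 292 and 329 CPM in the Ctrl libraries, 309, 289 and 283 in those of OHT, 223, 213 and 219 in those of Dox and 176, 158 and 158 in those of OHT_Dox. The 6 libraries with Dox lay below the 6 without it, and the fall was -0.58 ± 0.07 in Dox against Ctrl (adjusted p = 3.44e-05) and -0.84 ± 0.07 in OHT_Dox against OHT (adjusted p = 2.10e-07).

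Among 11 tested apoptosis genes 2 rose and 3 fell without Dox, and 3 rose and 3 fell with Dox. The shares of all genes called were 21.4% and 26.0%. APAF1, the scaffold of the apoptosome, went from 18.9 ± 1.9 to 11.4 ± 1.4 CPM (-0.71 ± 0.10, adjusted p = 2.42e-05) and, with Dox, from 21.6 ± 0.95 to 11.8 ± 0.70 CPM (-0.84 ± 0.10, adjusted p = 3.19e-06). PMAIP1, the BH3-only protein NOXA, fell by -0.47 ± 0.07 and -0.54 ± 0.07. TRIAP1, a small mitochondrial protein that restrains apoptosis, rose by 0.53 ± 0.07 and 0.63 ± 0.07, from 45.3 ± 3.3 to 65.7 ± 3.6 CPM without Dox. TNFRSF10B, a death receptor for TRAIL, rose by 0.24 ± 0.05 without Dox (adjusted p = 0.00238).

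Among 8 DNA repair genes 1 rose and 3 fell without Dox, and 0 rose and 4 fell with Dox (2 with TMM scaling or edgeR). The shares of all genes called were 21.4% and 26.0%. ERCC5, the XPG endonuclease of nucleotide excision repair, went from 52.5 ± 1.8 to 41.2 ± 1.9 CPM (-0.35 ± 0.06, adjusted p = 0.000383) and with Dox from 55.1 ± 1.9 to 39.2 ± 1.5 CPM (-0.48 ± 0.06, adjusted p = 9.41e-06). DDB2, a damage sensor of the same pathway, fell by -0.36 ± 0.09 and -0.26 ± 0.09. The former was not called without OHT replicate 3 (-0.26, adjusted p = 0.0583) and the latter in 10 of 23 alternatives. REV3L, the catalytic subunit of a translesion polymerase, rose by 0.45 ± 0.11 without Dox.

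Among 15 tested genes of metabolism, redox control and autophagy 2 rose and 3 fell without Dox, and 3 rose and 4 fell with Dox. Of all genes, 21.4% were called without Dox and 26.0% with Dox. SESN2, the stress-induced relative of SESN1, fell by -0.72 ± 0.11 and -0.48 ± 0.11 where SESN1 rose: it went from 15.4 ± 2.6 to 9.10 ± 0.115 CPM and, with Dox, from 17.3 ± 1.6 to 12.3 ± 0.44 CPM. PANK1, a pantothenate kinase of coenzyme A synthesis, rose by 0.54 ± 0.08 and 0.48 ± 0.08, and DRAM1, a lysosomal regulator of autophagy, by 0.48 ± 0.08 and 0.37 ± 0.08. SAT1, the enzyme that starts polyamine breakdown, fell with OHT by -0.46 ± 0.10 and -0.76 ± 0.10 and fell in OHT_Dox against OHT by -0.53 (adjusted p = 0.00356). Among 20 tested targets of other roles 3 rose and 4 fell without Dox, and 3 rose and 3 fell with Dox, beside the same shares of all genes. EPHA2, an ephrin receptor kinase, went from 218 ± 7.1 to 149 ± 7.5 CPM (-0.55 ± 0.05) and with Dox from 224 ± 5.3 to 154 ± 7.9 CPM (-0.54 ± 0.05). NINJ1, which ruptures the membrane of dying cells, rose by 0.62 ± 0.08 and 0.73 ± 0.08.

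**Figure D4:**
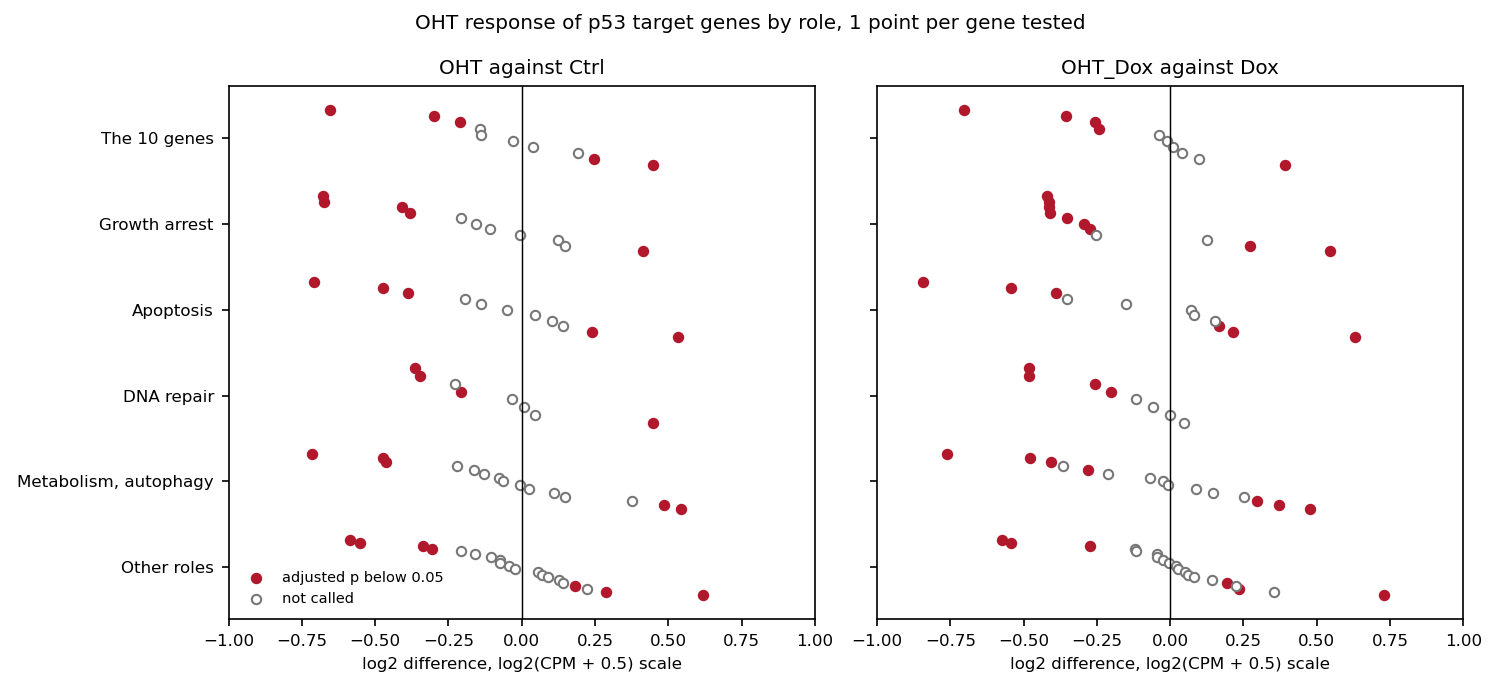
Log2 differences with OHT, without Dox (left) and with Dox (right), 1 point per tested gene, for the 10 genes and for the other p53 targets by role, with filled points for an adjusted p below 0.05. Every role holds filled points on both sides of 0 without Dox, and with Dox the DNA repair genes have filled points on the lower side only.

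Genes that lie downstream of p21 were read beside CDKN1A. p21 keeps the DREAM complex active, which represses cell cycle genes. Of 18 such genes, all tested, 0 rose and 10 fell without Dox (median -0.19) and 0 rose and 8 fell with Dox (median -0.16), where 8.79% and 14.5% of all genes were called lower. The remaining genes of the list were not called. CDKN1A, whose product keeps DREAM active, was lower in both comparisons. The called genes of the list were lower too, not the opposite direction that this repression alone would give. A link between the level of CDKN1A and these falls was not tested. KIF2C, a mitotic kinesin, fell by -0.37 ± 0.06 and -0.38 ± 0.06. CDC25C, the phosphatase that activates CDK1, fell by -0.43 ± 0.08 and -0.37 ± 0.08, and TOP2A, topoisomerase II alpha, by -0.29 ± 0.06 and -0.42 ± 0.06. Of the other genes named as CDK inhibitors, 4 were tested: CDKN1B, CDKN2C, CDKN2D and CDKN3. Among them 0 rose and 2 fell without Dox and 0 rose and 3 fell with Dox, beside the same shares of all genes. CDKN2C (p18) went from 54.5 ± 1.7 to 37.5 ± 2.8 CPM (-0.54 ± 0.06, adjusted p = 3.95e-06) and with Dox from 54.0 ± 1.1 to 39.4 ± 0.87 CPM (-0.45 ± 0.06, adjusted p = 2.84e-05). CDKN1B (p27) fell by -0.34 ± 0.08 and -0.41 ± 0.08.

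GDF15 is shared between p53 and the integrated stress response, whose targets were therefore counted. Of 13 tested, 3 rose and 1 fell without Dox, and 3 rose and 0 fell with Dox, shares near those of all genes (21.4% and 26.0%). The risers were the same in both: PSAT1, of serine synthesis (0.36 ± 0.05 and 0.26 ± 0.05), CTH, of cysteine synthesis (0.76 ± 0.12 and 0.56 ± 0.12), and TRIB3, a feedback pseudokinase (0.39 ± 0.08 and 0.39 ± 0.08). DDIT3, which encodes CHOP and was named after its value was seen, fell without Dox from 11.1 ± 1.4 to 8.47 ± 0.25 CPM (-0.37 ± 0.10, adjusted p = 0.0153).

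The 10 genes also differed in which other genes tracked them. Over the 12 libraries, and among 11279 genes whose mean was 5 CPM or more, the Pearson correlations of log2(CPM + 0.5) are given as a description, since all genes share the same libraries and groups. CDKN1A was most like ARMCX2 (0.95) and ACACB (0.94), MDM2 was most like GPATCH2 (0.98) and BNIP2 (0.98), and GDF15 was most like PRIM2 (0.97) and the p53 target EPHA2 (0.97). ZMAT3 was most like CMTM4 (0.97) and DCAF17 (0.97), and SESN1 was most like TOMM34 (0.97) and TIMM10B (0.97). For FAS the closest were CTNNAL1 (0.88) and ARG2 (0.86), for TP53INP1 CDKAL1 (0.88) and ZNF384 (0.87), for RRM2B AP1S2 (0.93) and FAM126A (0.93), and for FDXR SELENOS (0.92) and EEF1A1P4 (0.90).  Among themselves, GDF15 and CDKN1A were most alike (0.89), followed by RRM2B and MDM2 (0.80), while SESN1 ran opposite to GDF15 (-0.84).

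TP53I3 was most like FAM228B (0.98) and TMEM179B (0.90). FAM228B overlaps TP53I3 on the opposite strand, with 80 shared exonic bases (3.46% of the exonic length of TP53I3), and lay between 30.3 and 37.8 CPM. 4 further members have an annotated gene on the opposite strand that shares exonic bases: FAS with ACTA2 (380 bases, 8.93%), SESN1 with AL390208.1 (363 bases, 7.09%), MDM2 with AC025423.4 (785 bases, 5.91%) and with the gene CPM (133 bases), and CDKN1A with DINOL (146 bases, 4.79%). MDM2 also shares 439 exonic bases with the processed pseudogene AC025423.2 on its own strand. The libraries are strand-specific by the labels' protocols, but the strand setting of the counting is not given in the sources used here, so reads of these pairs may be mixed.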

How the data were processed

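The authors deposited 1 table of CPM for 28576 genes in 12 libraries, each summing to 1000000. The submitters' processing notes name the builds mm10 and hg19 and, as tools, featureCounts, STAR, Bowtie, Bowtie2, DRAGEN and FastQC for the series; the tools and version behind this table, the annotation and the strand setting are not given in the sources used here. The deposited CPM of every gene came out as a whole number of reads within 0.01 of a read, and those reads (44466458 to 57694970 per library) went into edgeR 4.0.16 and DESeq2 1.42.0 as alternatives. This depth covers the genes listed and no other reads.

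Genes with at least 0.5 CPM in at least 3 libraries (18674) were transformed to log2(CPM + 0.5), which understates changes of low genes. The fit was made in R 4.3.3 by limma 3.58.1: 1 mean per group, all 12 libraries, moderation with a mean trend, Benjamini-Hochberg adjustment per contrast, two-sided. Of 6 contrasts, 5 compare groups and 1 is the interaction, the OHT response with Dox less that without Dox. The fit was tested on simulated data with 200 changed genes. Alternatives were another pseudocount or filter, TMM scaling, edgeR, DESeq2, the replicate number as a block, only the groups compared, each library left out, 2 libraries left out together, and a GC correction, which subtracts the trend of a library's values with GC content and length. Exonic lengths and overlaps were computed from the exon positions of GENCODE 29. GC content was pooled over all annotated transcripts of a gene in the same release. Promoter windows and their printed coordinates are from RefSeq. The named genes are the 10 genes, TCEAL1 and MYCN, MDM4, USP7 and PPM1D, 2 to 4 genes of each list with the smallest p in a comparison, and the 2 genes most like each of the 10. The 10 genes and all lists were chosen with earlier results of these data known. Replicates of a group differed by more than counting noise (chi-square per degree of freedom 5.84 to 21.8). RPRM, SCO2 and CDKN2B of the lists were not analysed here.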

Additional observations from a re-analysis of the deposited data

How the results depend on the processing

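Each of the 60 results of the 10 genes was recomputed under 23 alternatives (22 for the interaction, and 1 fewer for TP53INP1, which the stricter filter of 1 CPM leaves out): 16 were called, 8 of them in every alternative, 40 of the 44 others were called in none, and 0 called results changed sign. In OHT against Ctrl 5 of the 10 genes were called, 3 with no filter and 3 with only the groups compared, and 3 to 5 without a library. In OHT_Dox against Dox the count of 5 became 4 with no filter, TMM scaling, edgeR, DESeq2 or only the groups compared, and 4 to 5 without a library. It became 3 after the GC correction and 3 without Dox replicate 1 and OHT_Dox replicate 3 together. In Dox against Ctrl the count of 1 became 0 with a pseudocount of 1, no filter, TMM scaling, edgeR, only the groups compared, the GC correction, and without Dox replicate 1 and OHT_Dox replicate 3, and 0 to 1 without a library. In OHT_Dox against Ctrl it was 5, and 6 with TMM scaling, DESeq2 or the GC correction. It was 4 with no filter and with only the groups compared. The same count was 4 without Dox replicate 1 and OHT_Dox replicate 3 together, and 3 to 5 without a library. In OHT_Dox against OHT it was 0 throughout, and for the interaction 0, or 1 without Ctrl replicate 1. Over all genes, Dox against Ctrl gave 1548 calls, 992 with no filter and 197 (without Dox replicate 2) to 3180 (without Ctrl replicate 1) without a library. OHT_Dox against OHT gave 392, and 685 with DESeq2, 700 after the GC correction and 196 (without OHT replicate 1) to 503 without a library. OHT_Dox against Dox gave 4862, and 2980 without Dox replicate 1 and OHT_Dox replicate 3. Higher genes made 59.0% of the calls in OHT against Ctrl and 59.3% in OHT_Dox against Ctrl, and 48.8% and 48.7% after the GC correction; in Dox against Ctrl the 68.5% became 34.3%. Deviations of same-numbered libraries of different groups correlated over 0.1 in 7 of 18 pairs (range -0.17 to 0.33). The negative pairs were Ctrl with Dox for replicate 1 (-0.006) and OHT with Dox for replicates 1 (-0.17) and 2 (-0.07). All other same-numbered pairs were positive. Pairs of unlike number ranged from -0.26 to 0.28. Whether same-numbered libraries share a batch was not tested, and the main fit has no term for it. With the replicate number as a block, counts of the 10 genes were unchanged, and over all genes Dox against Ctrl gave 2525 calls and OHT_Dox against OHT 631. The cause of these shifts was not tested. TP53INP1, with 18 to 54 reads per library, is the gene that depth limits most.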

Other observations

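Outside the response to OHT, 4 of the 65 other p53 targets were called in Dox against Ctrl, where 8.29% of all genes were: KITLG rose, and PLK2, IGFBP3 and PHLDA3 fell. KITLG, which encodes the ligand of the receptor KIT, stood at 20.7, 20.5 and 19.0 CPM in the Ctrl libraries and at 29.4, 27.6 and 26.0 CPM in those of Dox, without overlap (0.45, adjusted p = 0.00310). IGFBP3, a secreted binding protein of insulin-like growth factors, stood at 109, 118 and 116 CPM in the Ctrl libraries and at 88.5, 86.8 and 79.8 CPM in those of Dox, again without overlap (-0.43, adjusted p = 0.00223). Both calls held in each of the 23 alternatives. PHLDA3, a repressor of AKT, went from 43.1 ± 1.31 to 36.0 ± 1.41 CPM (-0.26, adjusted p = 0.0239), and was not called when Ctrl replicate 2, Ctrl replicate 3 or any Dox library was left out (-0.29 to -0.23). With OHT present none of KITLG (0.20, adjusted p = 0.251), IGFBP3 (-0.21, adjusted p = 0.168) and PHLDA3 (-0.11, adjusted p = 0.492) was called in OHT_Dox against OHT; the interaction was not called either, at -0.25 ± 0.11 for KITLG (adjusted p = 0.297), 0.22 ± 0.10 for IGFBP3 (adjusted p = 0.317) and 0.15 ± 0.09 for PHLDA3 (adjusted p = 0.470). IGFBP3 also fell with OHT in cells without Dox, by -0.34 (adjusted p = 0.00217).

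Of the listed genes in the table, TNFRSF10A, TP53AIP1, SPATA18, STC2 and CDKN1C lay under the filter, as did CDKN2A, and were not tested.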
